A study of Mus musculus with 6 samples.

Results

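The Hox cluster genes encode homeodomain transcription factors that give cells their position along the body axis. Their members here were every gene named Hoxa, Hoxb, Hoxc or Hoxd plus a number that was read by a probe set annotated to that symbol and no other. This gave 36 of the 22180 genes measured: 9 of cluster A, 10 of cluster B, 9 of cluster C and 8 of cluster D. Hoxa11 and Hoxd4 stood only on probe sets that carry a second symbol and are described apart from the 36. Where a symbol had several probe sets, the one with the highest mean over the arrays was kept, which concerned Hoxb5 alone.

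RNA came from untreated cultured cells that carry NeuNDL, an activated, oncogenic form of the receptor tyrosine kinase Neu (ErbB2), grown with serum and a mammary epithelial growth supplement. The 3 wild-type arrays were from cells with intact SLK and the 3 knockout arrays from cells that lack it, and all 6 arrays share the NeuNDL oncogene. SLK is a Ste20-family serine/threonine kinase of the cytoskeleton. The series calls the samples of each genotype independent and names passages 9, 19 and 29, but no label ties a passage, a clone or a line to an array. The p-values measure the spread between these samples, and genotype cannot be told apart from whatever else differs between the lines. Values are log signals per probe set, taken as log2.

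In vertebrates the Hox genes lie in 4 clusters on different chromosomes, and genes at the same place in different clusters form paralogue groups numbered from the 3' end. Genes of low number are used towards the head and genes of high number towards the tail. The proteins bind DNA together with TALE homeodomain cofactors of the Pbx, Meis and Pknox families. Polycomb proteins hold silent Hox clusters shut, and trithorax proteins of the MLL family keep active ones open. In the mammary gland, some genes of paralogue group 9 are known to act together in the growth of the gland around pregnancy.

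The targeted gene was lower on every knockout array. Slk had 8.28 ± 0.07 (SD, n = 3) in wild-type and 7.18 ± 0.03 (SD, n = 3) in knockout cells, or -1.10 as a log2 fold change (SE 0.06, limma adjusted p = 0.0021). Which part of the transcript its probes read was not analysed here. Arrays correlated with each other at 0.990 to 0.994 over probe sets, and their number limits the precision. The epithelial keratins Krt8 and Krt18 were bright, at 10.3 and 10.5 in wild-type cells, while Krt19 had 3.51 and the basal keratin gene Krt5 was not analysed here. Above the median gene lay 8 of 12 luminal, 5 of 9 basal, 8 of 12 fibroblast and 3 of 5 neural crest markers. So did 3 of 6 muscle, 1 of 8 endothelial and 0 of 8 leukocyte markers. By definition 50% of all genes do, so these counts do not name a cell type.

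The clearest feature of the Hox genes was their dim signal. Over the 3 wild-type arrays the 36 means ran from 2.33 to 5.32 on the log2 scale with a median of 3.36, against 4.38 for the median gene. Only 5 of the 36 (13.9%) were above that median gene, and the median Hox gene had a higher signal than 31.9% of all genes. Probe sets differ in the number and affinity of their probes, so these ranks order probe set signals and do not order transcripts, and a dim signal is no proof of silence.

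The dim end of the same arrays gives a scale for these values. The 1088 olfactory receptor genes, which most tissues outside the nose do not use, had a wild-type median of 2.02 and a 95th percentile of 3.78; this reference was added after the Hox values were seen. Of the Hox genes 9 of 36 (25%) were above 3.78, against 59.3% of all genes and, by construction, 5.06% of the olfactory receptors. The 25th percentile of the Hox means, 3.12, was above the 75th percentile of the olfactory receptors, 2.63. The 8 endothelial markers ran from 2.36 to 4.59 and the 8 measured leukocyte markers from 2.22 to 4.26, ranges that the Hox means overlap. In bulk RNA, few cells with a transcript and little transcript per cell cannot be told apart.

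**Figure D1:**
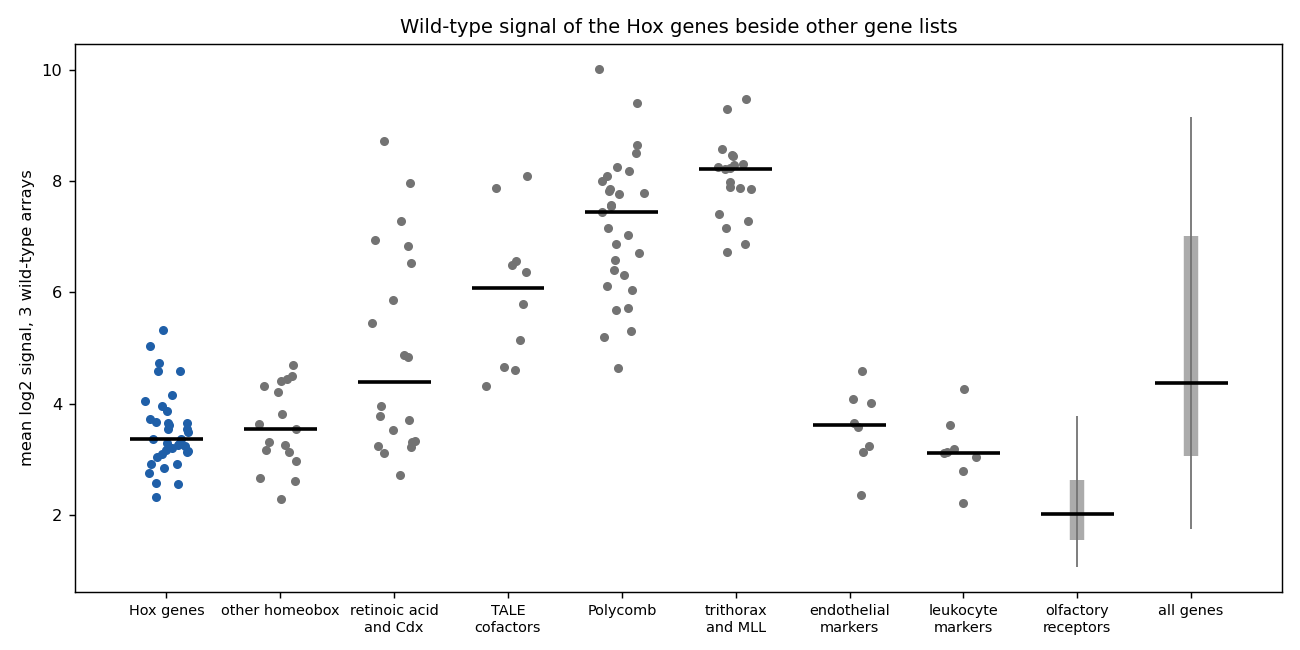
Mean log2 signal of each gene over the 3 wild-type arrays (points; black lines are list medians), with bars for olfactory receptors and all genes that mark the 25th to 75th percentile and thin lines from the 5th to the 95th. The Hox genes have a median of 3.36, while the TALE cofactors, Polycomb and trithorax lists have medians of 6.08, 7.45 and 8.21; horizontal position within a column is random.

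Wild-type signal differed along the clusters. In cluster A the bright probe sets were those of the middle genes. Hoxa7 had 5.24, 5.37 and 5.36 on wild-type arrays 1 to 3, and Hoxa4 had 5.07, 5.06 and 4.98. Hoxa6 had 4.50, 4.59 and 4.64. These exceeded the signal of 58.7%, 56.4% and 52.2% of all genes, while Hoxa2, Hoxa3, Hoxa5, Hoxa9, Hoxa10 and Hoxa13 had means between 3.09 and 3.65.

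In cluster B the bright probe sets were those of groups 4 and 5. Hoxb4 had wild-type values of 4.89, 4.55 and 4.75, and Hoxb5 had 4.52, 4.66 and 4.57. On the kept probe sets these were the only cluster B genes above the median gene. The other Hoxb5 probe set had a wild-type mean of 4.32, below the median gene. Its log2 fold change was -0.04 (SE 0.10), and its groups overlapped. Hoxb1, the gene at the 3' end of the cluster that acts in the hindbrain, had 4.05, 3.96 and 4.11. The other 7 genes had wild-type means from 2.85 (Hoxb7) to 3.96 (Hoxb9), and the paralogues of Hoxa6 and Hoxa7 were the dimmest of them, Hoxb6 at 3.03 and Hoxb7 at 2.85.

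Clusters C and D had no gene above the median gene. In cluster C the highest wild-type means were those of Hoxc13, a gene of hair follicle and nail, with 3.58, 3.68 and 3.74, of Hoxc12 with 3.32, 3.85 and 3.78, and of Hoxc10 with 3.47, 3.55 and 3.60. The lowest of all 36 belonged to Hoxc6, with 2.27, 2.33 and 2.37, above 11.8% of all genes. In cluster D Hoxd10 led with 4.05, 4.15 and 4.27, followed by Hoxd8 with 3.85, 3.95 and 3.77. Hoxd3 came next in that cluster with 3.46, 3.45 and 3.55. The medians of the wild-type means were 3.62 in cluster A, 3.63 in B, 3.14 in C and 3.26 in D.

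**Figure D2:**
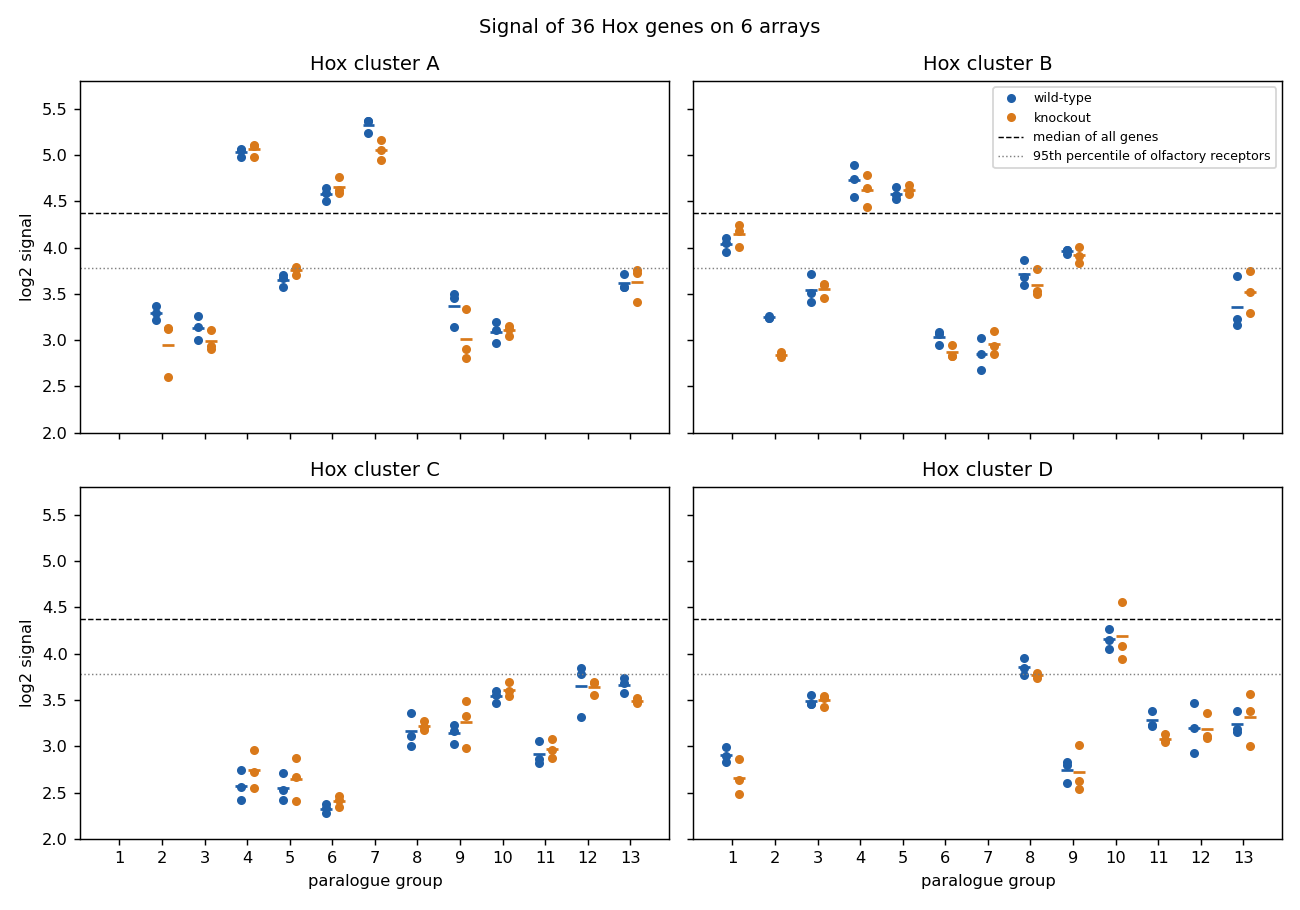
Log2 signal on each array (points) and group means (short lines) for the 36 Hox genes, by cluster and paralogue group, with the median of all genes (4.38, dashed) and the 95th percentile of olfactory receptors (3.78, dotted). Hoxa4, Hoxa6, Hoxa7, Hoxb4 and Hoxb5 are the 5 genes with a wild-type mean above the dashed line, and wild-type and knockout points lie close together for nearly every gene.

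The knockout arrays gave the Hox genes much the same values. Over the 36 genes the log2 fold change of knockout over wild-type had a median of 0.01, against 0.00377 over all 22180 genes. For the Hox genes it ran from -0.40 to 0.17, with 20 above 0 and 16 below. Of all genes 11429 were above 0 and 10751 below. The cluster medians were 0.01 for A, -0.02 for B, 0.07 for C and -0.01 for D. By array, the median deviation of the 36 genes from their own means was -0.04, -0.02 and 0.06 on wild-type arrays 1 to 3 and -0.04, 0.03 and -0.01 on knockout arrays 1 to 3. The groups overlapped on this measure, so the median of the Hox genes did not move with genotype beyond the spread between arrays. A median cannot show a shift confined to some of the genes.

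How tightly this is known follows from the 95% confidence intervals of the fitted differences, which had a median half-width of 0.21 log2 units for the Hox genes and 0.18 for all genes. For 32 of the 36 genes (88.9%) the interval lay wholly between -0.5 and 0.5 on the log2 scale, against 88.9% of all genes. The exceptions were Hoxa2 (-0.70 to 0.01), Hoxa9 (-0.73 to 0.04), Hoxb2 (-0.52 to -0.29) and Hoxb13 (-0.25 to 0.57). Array values of this kind compress the fold changes of dim genes, so these bounds hold for the signal and not for the RNA itself.

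**Figure D3:**
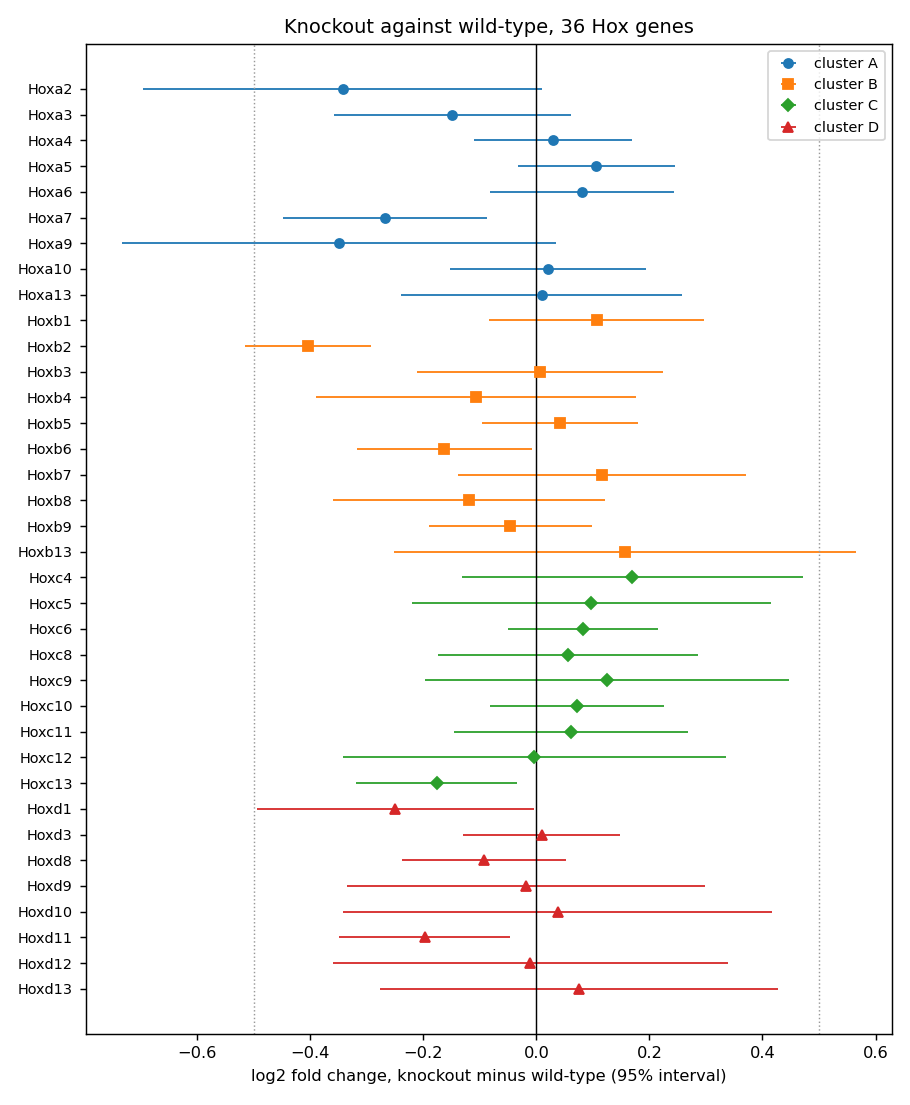
Log2 fold change of knockout over wild-type with its 95% confidence interval for the 36 Hox genes, in cluster order from 3' to 5'; dotted lines mark -0.5 and 0.5. Hoxb2 (-0.40) is the sole gene past the adjusted threshold, and most intervals include 0.

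One Hox gene passed the test across all genes. Hoxb2, which acts with Hoxb1 in the hindbrain, fell from 3.25 ± 0.01 to 2.84 ± 0.03 (SD, n = 3 each). Its values were 3.24, 3.24 and 3.26 on the wild-type arrays and 2.82, 2.88 and 2.84 on the knockout arrays, so the groups did not overlap. On the log2 scale it fell by 0.40 (SE 0.05), a 1.32-fold difference in signal, with an adjusted p of 0.029 (limma). Its SDs were small beside the median within-group SD of 0.12 over the 36 Hox genes. Hoxb2 is 1 of 36 Hox genes called lower, where 0.113% of all genes were called lower. None was called higher, where 0.325% of all genes were.

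The Hoxb2 signal was dim on both sides, above 29.3% of all genes in wild-type cells and under the olfactory receptor bar of 3.78 in both genotypes. It was not shown to lie above background, so the fold is one of signal and not of RNA. Its difference ran from -0.42 to -0.39 over the 14 alternatives in which it was tested. Some of these, such as another variance model, cannot change the difference by design. The call held in 4 of the 14. It was lost whichever single array was left out, wild-type 1, 2 or 3 or knockout 1, 2 or 3, with adjusted p from 0.098 to 0.14; over all genes these fits called 13 to 24 higher and 2 to 5 lower, against 72 and 25 with all arrays. With an intensity trend in the variance model the adjusted p was 0.079, and with every probe set tested by itself it was 0.14.

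Probe sets around Hoxb2 had differences nearer 0. On either side of it in the cluster, Hoxb1 had a log2 fold change of 0.11 (SE 0.08) and Hoxb3 one of 0.01 (SE 0.09). A further probe set, annotated to Hoxb2 and Hoxb3 together and therefore not assigned to a gene, had 3.41, 3.16 and 3.25 on the wild-type arrays and 3.56, 3.63 and 2.90 on the knockout arrays. Its groups overlapped, with a log2 fold change of 0.09 (SE 0.21).

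Hoxa2 is the paralogue of Hoxb2, and both pattern the hindbrain and the second branchial arch. Its values were 3.36, 3.29 and 3.22 on the wild-type arrays and 2.60, 3.13 and 3.12 on the knockout arrays. All 3 knockout arrays were below the wild-type arrays, by little on arrays 2 and 3, and knockout array 1 was far below the rest. The log2 fold change of -0.34 (SE 0.15) did not pass (limma, adjusted p = 0.50), and it was -0.17 without knockout replicate 1. Paralogue group 2 has only these members in the mouse.

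Another 5 Hox genes had an unadjusted p under 0.05, all with the lower mean in knockout cells. With Hoxb2 this makes 6 of 36 (16.7%), where 4.47% of all genes had such a p on the lower side, and 0 of 36 on the higher side, where 5.75% of all genes did. None of the 5 passed over all genes.

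Hoxa7, the brightest Hox probe set in wild-type cells, had 5.24, 5.37 and 5.36 against 5.05, 4.94 and 5.17 on knockout arrays 1 to 3. The groups did not overlap, and the log2 fold change was -0.27 (SE 0.08, limma adjusted p = 0.29). A probe set annotated to Hoxa7 together with the non-coding gene Mira had -0.19 (SE 0.08), with all 3 knockout arrays below the wild-type arrays.

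Hoxc13 had 3.58, 3.68 and 3.74 in wild-type and 3.52, 3.49 and 3.47 in knockout cells, a log2 fold change of -0.18 (SE 0.06, limma adjusted p = 0.39). Hoxd11, a gene of limb and kidney, had 3.23, 3.38 and 3.22 against 3.06, 3.13 and 3.04, or -0.20 (SE 0.06, limma adjusted p = 0.36). In both genes the knockout arrays were all below the wild-type arrays.

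Hoxb6 had 2.94, 3.07 and 3.09 in wild-type and 2.83, 2.83 and 2.95 in knockout cells, a log2 fold change of -0.16 (SE 0.06, limma adjusted p = 0.47). Hoxd1, at the 3' end of its cluster, had 2.995, 2.90 and 2.83 against 2.49, 2.63 and 2.86, or -0.25 (SE 0.10, limma adjusted p = 0.48). For each of these 2 genes the groups overlapped at 1 array.

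In the other direction, Hoxa5 had 3.67, 3.57 and 3.70 in wild-type and 3.70, 3.76 and 3.80 in knockout cells. Its groups touched without overlapping, and the log2 fold change was 0.11 (SE 0.06, limma adjusted p = 0.61). In all, 5 of 36 Hox genes (13.9%) had knockout arrays wholly below wild-type arrays, where 8.1% of all genes did, and 1 (2.78%) had them wholly above, where 8.79% of all genes did.

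**Figure D4:**
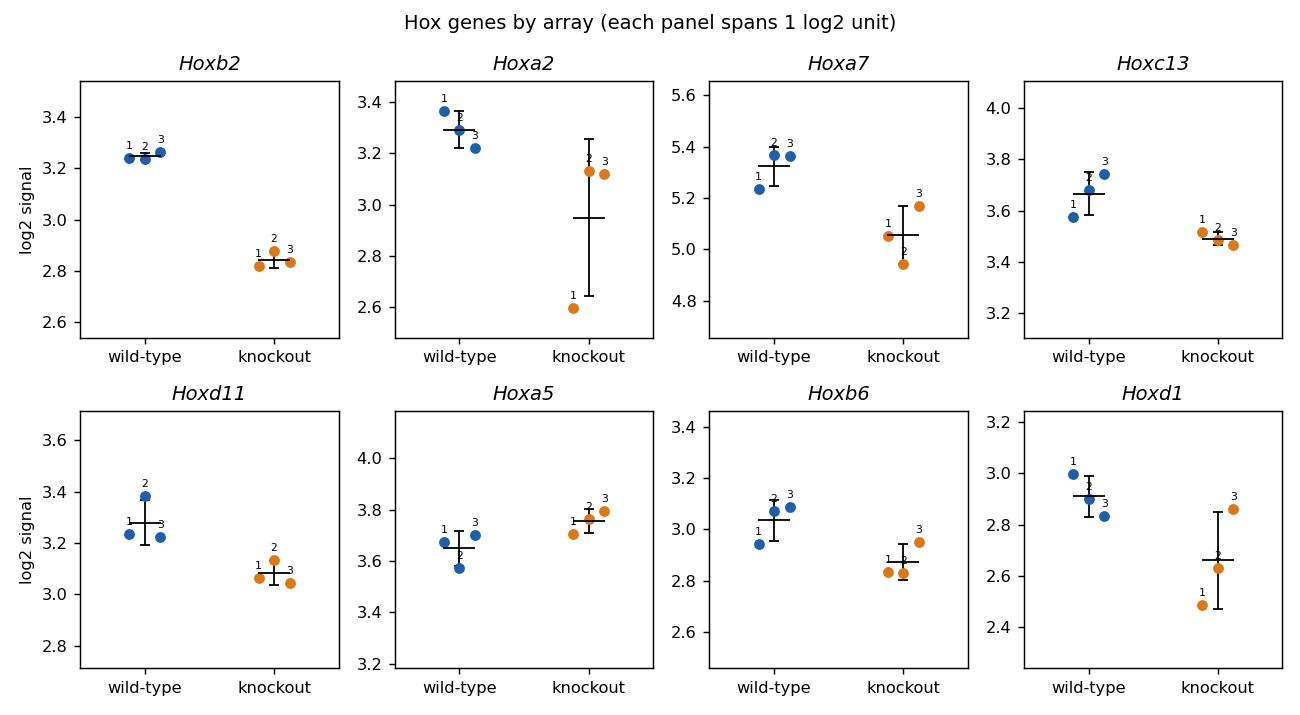
Log2 signal on each array for 8 Hox genes (points, numbered by replicate; bars are the mean and SD of 3 arrays), each panel spanning 1 log2 unit. Hoxb2 shows the tightest wild-type group, 3.24 to 3.26, against 2.82 to 2.88 in knockout, while Hoxb6 and Hoxd1 overlap at 1 array.

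The brightest members other than Hoxa7 differed little between the genotypes. Knockout arrays 1 to 3 gave Hoxa4 4.98, 5.10 and 5.11, and its log2 fold change was 0.03 (SE 0.06). They gave Hoxa6 4.76, 4.59 and 4.62 (0.08, SE 0.07) and Hoxb5 4.62, 4.67 and 4.58 (0.04, SE 0.06). Hoxb4 had 4.65, 4.78 and 4.44 (-0.11, SE 0.12). In each of the 4 genes the groups overlapped.

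Apart from Hoxc13, whose groups did not overlap, the leading genes of clusters C and D and Hoxb1 also had overlapping groups. On knockout arrays 1 to 3 Hoxb1 had 4.01, 4.25 and 4.18, and Hoxc10 had 3.60, 3.54 and 3.70 (log2 fold change 0.07, SE 0.06). Hoxc12 had 3.55, 3.68 and 3.70 with a log2 fold change of -0.0035 (SE 0.14). Hoxd8 had 3.79, 3.74 and 3.77 (-0.09, SE 0.06), and Hoxd3 had 3.42, 3.52 and 3.55 (0.01, SE 0.06). Hoxd10 had 3.94, 4.55 and 4.08 (0.04, SE 0.16), with the highest and the lowest of its 6 values both on knockout arrays. None of these 6 genes passed the test.

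Paralogue group 9 had wild-type means below the median gene in all 4 clusters. Hoxb9 alone of the group was above the olfactory receptor bar of 3.78. Hoxa9 had 3.14, 3.50 and 3.46 in wild-type and 2.90, 3.34 and 2.81 in knockout cells, with overlapping groups and a log2 fold change of -0.35 (SE 0.16, limma adjusted p = 0.53). Hoxb9 had wild-type and knockout means of 3.96 and 3.92, Hoxc9 of 3.14 and 3.27, and Hoxd9 of 2.74 and 2.73. Their log2 fold changes were -0.05 (SE 0.06), 0.12 (SE 0.13) and -0.02 (SE 0.13). The paralogues thus gave no common direction.

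The remaining members had log2 fold changes between -0.15 (Hoxa3) and 0.17 (Hoxc4), and all had overlapping groups. They were Hoxa3, Hoxa10, Hoxa13, Hoxb3, Hoxb7, Hoxb8, Hoxb13, Hoxc4, Hoxc5, Hoxc6, Hoxc8, Hoxc11, Hoxd12 and Hoxd13. In cluster C 7 of the 9 genes had the higher mean in knockout cells, where 11429 of all 22180 genes did. The largest of these differences was that of Hoxc4, from 2.57 to 2.74 (SE 0.13), and none passed.

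The probe sets with a second symbol were kept apart from the 36. Hoxa11, shared with its antisense gene Hoxa11os, had log2 differences of -0.09 (SE 0.05) on one probe set and 0.08 (SE 0.14) on another. Hoxd4, shared with Hoxd3, had -0.06 (SE 0.15), and Hoxa3, shared with 5730446D14Rik, had -0.04 (SE 0.08). Hoxb4, shared with the microRNA gene Mir10a, had -0.16 (SE 0.07). The knockout arrays lay wholly below wild-type for the Mir10a probe set and the first of Hoxa11, and none of these passed when every probe set was tested.

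Promoter sequences from RefSeq (GRCm38.p6) were matched by symbol for 20 of the 36 members. They gave 22 windows of the 250 bases before the transcription start. The windows of Hoxa2, Hoxa7 and Hoxd11 are shown because these genes lay below wild-type on every knockout array. Hoxb2 and Hoxc13 did so too but have no promoter entry. Capitals mark matches, on either strand, to TGATTNAT, a form of the composite Pbx-Hox site, and to TGACAG, the Meis core. The windows are chr6:52164832-52165081 (minus strand) for Hoxa2, chr6:52218574-52218823 (minus strand) for Hoxa7, and chr2:74679308-74679557 and chr2:74682073-74682322 (plus strand) for the starts 1 and 2 of Hoxd11.
Hoxa2: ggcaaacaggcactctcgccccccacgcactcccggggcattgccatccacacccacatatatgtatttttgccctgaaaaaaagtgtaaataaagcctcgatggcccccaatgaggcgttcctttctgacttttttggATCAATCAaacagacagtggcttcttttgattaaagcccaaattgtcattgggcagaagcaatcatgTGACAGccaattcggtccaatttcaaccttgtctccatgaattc
Hoxa7: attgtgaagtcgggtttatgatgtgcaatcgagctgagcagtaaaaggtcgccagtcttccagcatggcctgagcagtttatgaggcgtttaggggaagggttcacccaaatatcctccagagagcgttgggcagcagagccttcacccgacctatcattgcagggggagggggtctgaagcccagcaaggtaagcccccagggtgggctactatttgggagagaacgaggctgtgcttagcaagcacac
Hoxd11 start 1: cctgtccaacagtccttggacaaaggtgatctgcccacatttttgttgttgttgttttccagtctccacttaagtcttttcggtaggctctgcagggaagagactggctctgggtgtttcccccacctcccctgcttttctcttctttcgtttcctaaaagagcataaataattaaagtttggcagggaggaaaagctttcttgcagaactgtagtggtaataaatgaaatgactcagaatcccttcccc
Hoxd11 start 2: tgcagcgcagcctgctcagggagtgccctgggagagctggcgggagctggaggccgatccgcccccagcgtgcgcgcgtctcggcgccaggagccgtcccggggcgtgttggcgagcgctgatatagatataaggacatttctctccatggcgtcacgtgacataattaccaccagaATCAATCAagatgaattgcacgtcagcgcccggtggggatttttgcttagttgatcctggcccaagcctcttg

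Matches were few. Hoxa2 holds 1 TGATTNAT match, read on the other strand as ATCAATCA, and 1 TGACAG match, and the second Hoxd11 window holds 1 TGATTNAT match, while Hoxa7 holds neither. Among the 22 Hox windows 2 (9.09%) hold TGATTNAT, against 2.83% of 32851 windows of all genes, and 2 (9.09%) hold TGACAG, against 15.9%. The windows are rich in CpG: the observed over expected CpG ratio had a median of 0.72 in the Hox windows and 0.37 in all, and 12 of the 22 (54.5%) reached 0.6, against 34.0% of all. Hoxa7 (0.39), Hoxa2 (0.47) and start 1 of Hoxd11 (0.16) were below 0.6, and start 2 of Hoxd11 (0.88) was above it. A match is a description of letters and not a bound site.

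Cofactors and regulators of the Hox genes were bright, and none of them passed the test. Of 11 TALE genes 10 were measured, with wild-type means from 4.31 to 8.09; 9 were above the median gene. Meis2 had 8.09 ± 0.04 and 7.99 ± 0.04 (SD, n = 3 each; log2 fold change -0.10), Pbx3 had 6.50 and 6.59 (0.09), and Pknox2 had 4.61 ± 0.11 and 4.38 ± 0.07 (-0.23, SE 0.07, limma adjusted p = 0.36). The list's median was -0.05, against 0.00377 for all genes.

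All 29 measured Polycomb genes of 32 listed were above the median gene, with Ezh2, the H3K27 methyltransferase, at 9.40 in wild-type and 9.38 in knockout cells. None passed, 22 had the lower and 7 the higher mean in knockout cells, and the median log2 fold change was -0.04. Over all genes 10751 had the lower and 11429 the higher mean. Without the dimmest 50% of genes the median log2 fold change over all genes was -0.0085. The smallest p values belonged to Pcgf6 (-0.12, SE 0.05), Phc2 (-0.11, SE 0.05) and Phf19 (0.13, SE 0.06). The 19 measured trithorax and MLL genes of 20 ran from 6.73 to 9.48 in wild-type cells. They had a median log2 fold change of -0.02 and none past the threshold.

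Among the trithorax and MLL genes Mllt3, a reader protein of the super elongation complex, had 7.99, 8.01 and 7.96 in wild-type and 7.74, 7.70 and 7.75 in knockout cells. The groups did not overlap. Its log2 fold change of -0.26 (SE 0.05) had an adjusted p of 0.10 (limma) and passed the threshold in 4 of the 16 alternatives. Kmt2b had -0.09 and Dot1l -0.08, and Kmt2a, the MLL gene itself, had 8.21 and 8.24.

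Upstream inducers were mixed in level. Of 20 measured retinoic acid and Cdx genes of 21, 10 were above the median gene; none passed. Crabp1, a retinoic acid binding protein, had a log2 fold change of 0.21 (SE 0.09), Rxrb one of -0.09 and Cyp26b1, a retinoic acid degrading enzyme, one of -0.11. Other homeobox genes were also dim, with a wild-type median of 3.55 over 17 of 20 listed, and none passed. Dlx2 had 4.39, 4.40 and 4.45 in wild-type and 4.68, 4.68 and 4.66 in knockout cells (log2 fold change 0.27, SE 0.05, limma adjusted p = 0.097), Dlx4 had 0.28 (SE 0.08), and Gsx2 had 0.19.

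Genes beside the clusters and their non-coding transcripts were read by 22 of 36 listed symbols, and none passed. The median log2 fold change was 0.01. Cbx5, near the 3' end of cluster C, had 9.23 ± 0.03 and 9.39 ± 0.02 (SD, n = 3 each; 0.16, SE 0.05, limma adjusted p = 0.32). Hoxd3os1, an antisense transcript of cluster D, had -0.16 (SE 0.07), and Hotair, the non-coding RNA of cluster C, had 3.34 and 3.48 (0.14, SE 0.06). The even-skipped genes at the 5' ends of clusters A and D, Evx1 and Evx2, had 3.63 and 4.35 in wild-type cells and log2 fold changes of 0.01 and 0.10.

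Some markers of cell types changed between the genotypes beside the fall of Hoxb2. Of 12 luminal markers 1 fell, the adhesion gene Cdh1 (-0.43), and none rose. Of 9 basal markers Mme rose (1.42) and Krt14 fell (-0.66). Of 12 fibroblast markers 1 fell, Pdgfrb (-0.67), and of 5 neural crest markers 1 rose, Sox10 (1.47). None of the 8 endothelial, 8 leukocyte or 6 muscle markers passed. Over all genes 0.113% were called lower and 0.325% higher. The mean signal of the luminal list was 6.89 to 7.001 on wild-type and 6.87 to 6.90 on knockout arrays, and that of the basal list 5.48 to 5.57 and 5.43 to 5.61. The fibroblast list had 5.41 to 5.46 and 5.37 to 5.46, and the neural crest list 4.66 to 4.74 and 4.88 to 5.04. In the neural crest list Sox10 alone passed, Erbb3 had 0.12, S100b -0.14, Ngfr -0.08 and Foxd3 -0.10, and the median log2 fold change was -0.08. No marker was at 0, but neither was any gene, as the lowest wild-type mean of all was 0.67. The part of the markers in the Hoxb2 result was not tested.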

How the data were processed

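The authors deposited 1 table of log2 values for 41345 probe sets on each of 6 arrays. The submitters' processing notes name Affymetrix Expression Console 1.4.1.46. For background correction, normalization, summarisation and log base the sources used here give nothing; the base was taken as 2, and every fold rests on that. Array medians (3.93 to 3.97) were nearly equal, and no further normalization was applied.

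Gene symbols came from GEO's platform annotation, and probe sets with 1 symbol were reduced to 22180 genes. Groups follow the sample titles. Knockout and wild-type were compared across all genes by lmFit and eBayes of limma 3.58.1 (R 4.3.3; no covariate, no filter), two-sided, with Benjamini-Hochberg adjustment over all genes and a threshold of 0.05. The procedure was tested on simulated data. The members, gene lists, alternatives and naming rule were chosen with earlier results of these data known. Values by array are given for Hox genes that passed, had an unadjusted p under 0.05 or groups without overlap, and for the 3 brightest of each cluster; of other lists, the 3 genes with the smallest p are named. Hoxa9, Ezh2, Kmt2a, Evx1, Evx2 and the named markers were added after their values were seen. Alternatives covered normalization, filters on dim genes, averaging of probe sets, the variance model, array weights, the replicate block and leaving out each array; testing every probe set was added after seeing the data.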

Additional observations from a re-analysis of the deposited data

How the results depend on the processing

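The median log2 fold change of the Hox genes stayed within -0.01 to 0.04 in all 16 alternatives, each within the spread of arrays. The change of Slk kept its sign and its call in all 16 (-1.14 to -1.07). Alternatives that alter only the variance model or the number of tests cannot move either fold change. From 1, the number of Hox genes called became 0 with an intensity trend, with trend and robust estimation, with the replicate block (Hoxb2 adjusted p = 0.21), with every probe set tested by itself (an alternative chosen after seeing the data) and whichever array was left out (0 to 0). It was also 0 without the dimmest 30% or 50% of genes, which leaves 18 and 5 Hox genes and removes Hoxb2. The number of Hox genes without overlap, 6, became 3 and 1 under those filters and 7 to 13 with 1 array left out, where fewer arrays make separation easier. The other lists had 0 calls and got 2 with either filter (Mllt3 and Dlx2) and 2 with either trend setting (Mllt3 and Cbx5). Of 18 named Hox genes, 3 with differences near 0 changed sign. Hoxc12 had -0.17 to 0.10 with 1 array left out. Hoxd3 had -0.0016 with quantile normalization and -0.015 to 0.046 with 1 array left out. Hoxd10 had -0.0097 with array weights and -0.14 to 0.16 with 1 array left out. The cause was not tested. Replicates share numbers between the groups. Deviations of same-numbered arrays from their group means correlated at 0.04, 0.02 and -0.07, and those of differently numbered arrays at -0.12 to 0.11. With 3 arrays per group these values cannot show whether same-numbered arrays were paired. Over all genes the replicate block left 5 higher and 1 lower, against 72 and 25. Dim signal limits the values of the Hox genes, of which 9 of 36 lay above the olfactory receptor 95th percentile.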
